A study of Mus musculus with 48 samples.

Results

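The comparison of E6l2-Trp53-KO with Trp53-KO cells at high density asks what the Ercc6l2 edit changes in crowded cells that already carry a Trp53 edit. Its members were chosen by the raw count columns of the deposited table that are labelled with these genotypes and with high density, 3 libraries of each, so 6 of the 48 libraries of the series. All cells were Cas9-Hoxb8 cells, mouse progenitors of the granulocyte and monocyte branch held in a dividing, undifferentiated state by a conditional Hoxb8 protein and expressing Cas9 for editing. Trp53-KO cells were edited for Trp53, the gene of p53, and E6l2-Trp53-KO cells for both Ercc6l2 and Trp53, so Cas9, Hoxb8 and the Trp53 edit are shared by both groups and the Ercc6l2 edit is what the labels set between them. At high density 4 M cells were seeded per well (M stands for mega) and kept for 48 h. The same genotypes were also grown from 0.25 M cells per well for 48 h in DMSO, the solvent control, or in etoposide, a topoisomerase II poison. Whether crowded wells also held DMSO is not stated, so cell number and solvent cannot be told apart between those conditions. E6l2-KO cells (Ercc6l2 edit, Trp53 intact) and wildtype cells at high density give the Ercc6l2 edit without the Trp53 edit. No label tells separately edited lines of a genotype apart, so the genotype and the edited line cannot be told apart. The labels also do not say whether replicates are separate cultures, so p-values measure the spread between these libraries, which may be technical.

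ERCC6L2 is a helicase-like protein of the SNF2 family that takes part in the joining of broken DNA ends, and its germline loss in people causes bone marrow failure. p53 is the transcription factor that stops or kills cells with damaged DNA, and cells without it keep dividing under damage. Progenitors of the granulocyte and monocyte branch express primary granule genes, and genes of the erythroid, megakaryocyte and lymphoid branches are normally low in them. Crowded cultures run short of nutrients and oxygen, which in many cell types engages hypoxia and amino acid stress genes.

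The 6 libraries held 24.2 to 29.3 M counts, against 22.5 to 114.4 M in the whole series, and ribosomal protein genes took 18.7 to 19.8% of the counts. Levels are counts per M counts of a library (CPM), and calls were made at an adjusted p under 0.05 over 14059 tested genes (edgeR's quasi-likelihood test with Benjamini-Hochberg adjustment, 24 residual degrees of freedom). Log2 fold changes are E6l2-Trp53-KO over Trp53-KO unless another contrast is named. Trp53 (ENSMUSG00000059552) stood at 21.3, 17.6 and 16.2 CPM in the E6l2-Trp53-KO libraries and 25.1, 27.3 and 24.02 CPM in the Trp53-KO libraries (log2 fold change -0.46, SE 0.0878, adjusted p = 0.000146), with no overlap. At high density wildtype cells had 77.4 ± 6.22 CPM of Trp53 and E6l2-KO cells 78.5 ± 1.71 CPM (mean ± SD, n = 3), so both groups of the comparison were below the unedited level. Ercc6l2 (ENSMUSG00000021470) stood at 28.4, 27.4 and 28.4 CPM in the E6l2-Trp53-KO libraries and 29.9, 29.3 and 29.8 CPM in the Trp53-KO libraries (log2 fold change -0.08, SE 0.0597, adjusted p = 0.388) and did not pass the test. A small edit can end a protein while its mRNA stays, so the Ercc6l2 level does not check the label. All 13 markers of granulocyte and monocyte progenitors were detected in both groups, with a summed level of 7755 to 8668 CPM in E6l2-Trp53-KO and 9399 to 10170 CPM in Trp53-KO libraries. The markers and their sum include Hoxb8, which these cells were engineered to carry, so its detection says nothing about cell identity.

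In all, 2793 of 14059 genes (19.9%) differed, 1591 higher (11.3%) and 1202 lower (8.55%) in E6l2-Trp53-KO cells. Of these, 381 were at least 2-fold higher and 141 at least 2-fold lower, and the median log2 fold change over all genes was -0.0029. Genes that are low in Trp53-KO cells led the list of higher genes, among them a coagulation inhibitor, a survival kinase and a globin. The cyclin-dependent kinase inhibitor gene Cdkn2a was 7.53-fold higher. The count of called genes was lowest, at 2080, without E6l2-Trp53-KO replicate 3.

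**Figure D1:**
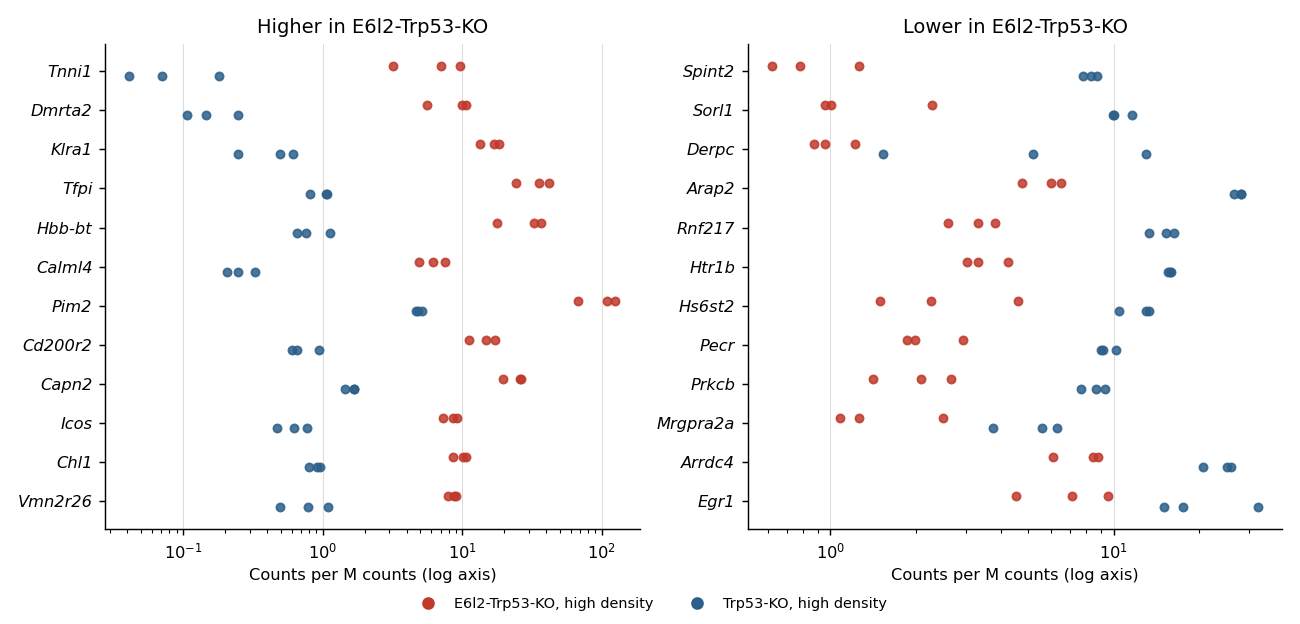
Level in each of the 6 libraries (counts per M counts, log axis) for the genes with the largest changes, with E6l2-Trp53-KO and Trp53-KO libraries at high density as separate points. The points of both genotypes stand apart for every gene drawn because only genes without overlap were chosen. The spread between Trp53-KO libraries is widest for Derpc (1.53 to 13.1 CPM).

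Tfpi (ENSMUSG00000027082), which encodes the inhibitor of the tissue factor pathway of coagulation, stood at 24.4, 42.1 and 35.8 CPM in the E6l2-Trp53-KO libraries and 1.05, 1.07 and 0.815 CPM in the Trp53-KO libraries. All E6l2-Trp53-KO libraries lay far above all Trp53-KO libraries, a 34.6-fold difference (log2 fold change 5.11, SE 0.193, adjusted p = 9.32e-21). Pim2 (ENSMUSG00000031155), a serine/threonine kinase that favours survival and growth downstream of cytokine receptors, stood at 67.3, 125 and 110 CPM in the E6l2-Trp53-KO libraries and 4.69, 5.16 and 4.82 CPM in the Trp53-KO libraries, a 20.6-fold difference (log2 fold change 4.36, SE 0.1596, adjusted p = 4.37e-21). The groups did not overlap, as the choice of genes required, and E6l2-Trp53-KO replicate 1 was the lowest of its group for both genes. Hbb-bt (ENSMUSG00000073940), an adult beta globin, stood at 17.7, 32.98 and 36.5 CPM in the E6l2-Trp53-KO libraries and 0.764, 0.661 and 1.13 CPM in the Trp53-KO libraries (log2 fold change 5.06, SE 0.257, adjusted p = 4.61e-17). Reads can be shared between the beta globin genes, so their separate levels are uncertain. Capn2 (ENSMUSG00000026509), a calcium-dependent protease, rose 14.9-fold, from 1.61 ± 0.134 to 24.03 ± 3.79 CPM (log2 fold change 3.90, SE 0.1403, adjusted p = 3.84e-21). Tnni1 (ENSMUSG00000026418), the slow skeletal troponin I, had 3.19, 7.01 and 9.57 CPM in E6l2-Trp53-KO libraries against 0.182, 0.0413 and 0.0708 CPM in Trp53-KO libraries (log2 fold change 5.97, SE 0.4698, adjusted p = 3.86e-12). Its Trp53-KO level rests on few counts. Dmrta2 (ENSMUSG00000047143), a DM-domain transcription factor, rose from 0.167 ± 0.0731 to 8.77 ± 2.77 CPM (log2 fold change 5.70, SE 0.284, adjusted p = 2.87e-17). Calml4 (ENSMUSG00000032246), a calmodulin-like gene, rose from 0.261 ± 0.0615 to 6.18 ± 1.31 CPM (log2 fold change 4.54, SE 0.237, adjusted p = 9.76e-17).

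Several of the remaining genes with large rises encode surface proteins. Icos (ENSMUSG00000026009), a co-stimulatory receptor of T cells, rose 13.3-fold to 8.39 ± 0.984 CPM (adjusted p = 7.87e-16). Chl1 (ENSMUSG00000030077), a cell adhesion molecule of the L1 family, rose 10.97-fold to 9.802 ± 1.06 CPM (adjusted p = 2.94e-15). Klra1 (ENSMUSG00000079853), a lectin-like receptor of the Ly49 family, stood at 16.3 ± 2.54 against 0.454 ± 0.189 CPM (log2 5.12). Cd200r2 (ENSMUSG00000090176) and Vmn2r26 (ENSMUSG00000096630), a receptor related to the CD200 receptor and a vomeronasal receptor, were higher by log2 4.29 and 3.43. The Ly49, CD200 receptor and vomeronasal families hold near-identical copies, so which member gave the reads is uncertain for these 3 genes. For all of them the 3 libraries of each genotype stood apart, which the choice of genes required.

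Among the genes that fell, Spint2 (ENSMUSG00000074227), an inhibitor of serine proteases at the cell surface, stood at 1.26, 0.622 and 0.783 CPM in the E6l2-Trp53-KO libraries and 8.33, 7.805 and 8.75 CPM in the Trp53-KO libraries (log2 fold change -3.18, SE 0.192, adjusted p = 4.18e-15). Sorl1 (ENSMUSG00000049313), a sorting receptor of endosomes, stood at 2.28, 0.954 and 1.001 CPM in the E6l2-Trp53-KO libraries and 9.97, 11.7 and 10.1 CPM in the Trp53-KO libraries (log2 fold change -2.85, SE 0.162, adjusted p = 8.47e-16). Both were low in every E6l2-Trp53-KO library, with replicate 1 the highest of that group. Arap2 (ENSMUSG00000037999), a GTPase-activating protein for Arf6, stood at 4.74, 6.02 and 6.53 CPM in the E6l2-Trp53-KO libraries and 26.6, 28.2 and 28.1 CPM in the Trp53-KO libraries (log2 fold change -2.27, SE 0.0856, adjusted p = 9.32e-21), with tight and separate groups. Rnf217 (ENSMUSG00000063760), a ubiquitin ligase, fell 4.56-fold to 3.25 ± 0.611 CPM (adjusted p = 5.58e-17). Prkcb (ENSMUSG00000052889), protein kinase C beta, fell 4.097-fold to 2.06 ± 0.6296 CPM (adjusted p = 1.87e-11). Hs6st2 (ENSMUSG00000062184), a heparan sulfate sulfotransferase, fell 4.27-fold, and the serotonin receptor gene Htr1b (ENSMUSG00000049511) fell 4.44-fold. Pecr (ENSMUSG00000026189), a peroxisomal reductase of fatty acid elongation, fell 4.12-fold to 2.27 ± 0.591 CPM. Arrdc4 (ENSMUSG00000042659), an arrestin-domain gene that restrains glucose uptake, fell 3.08-fold (adjusted p = 2.05e-11), and Mrgpra2a (ENSMUSG00000093973), one of a family of near-identical receptors, fell 3.17-fold. Derpc (ENSMUSG00000117748) had 0.878, 0.954 and 1.22 CPM against 5.203, 1.53 and 13.1 CPM (log2 fold change -2.73, SE 0.863, adjusted p = 0.0216). Its Trp53-KO libraries spread widely, and the call was lost without any 1 E6l2-Trp53-KO library or without Trp53-KO replicate 3.

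Gene lists were described by their called members beside the shares over all genes given above (11.3% higher, 8.55% lower). Several lists had similar counts without crowding, as given below with the other treatments. At high density the erythroid list had 5 of 8 tested members higher and none lower (median log2 1.02), and the megakaryocyte and platelet list had 6 of 10 higher and none lower (median 0.71). Besides Hbb-bt, the erythroid members that rose were Hbb-bs, Gata1, Epor and Car2. Gata1 (ENSMUSG00000031162), the transcription factor of erythroid, megakaryocyte, mast cell and eosinophil development, stood at 1.61, 2.16 and 2.44 CPM in the E6l2-Trp53-KO libraries and 0.291, 0.289 and 0.177 CPM in the Trp53-KO libraries (log2 fold change 3.02, SE 0.288, adjusted p = 3.86e-10). The groups stood apart, at a low level throughout. Epor (ENSMUSG00000006235), the erythropoietin receptor, rose from 1.299 ± 0.268 to 2.96 ± 0.314 CPM (log2 1.19, adjusted p = 0.000401), and Hbb-bs (ENSMUSG00000052305), the other adult beta globin, stood at 0.702, 1.25 and 1.09 against 0.145, 0 and 0 CPM (log2 4.21, adjusted p = 3.28e-05). Of the megakaryocyte genes, Pf4 (ENSMUSG00000029373), platelet factor 4, stood at 139, 113 and 132 CPM in the E6l2-Trp53-KO libraries and 58.04, 48.7 and 47.8 CPM in the Trp53-KO libraries (log2 fold change 1.32, SE 0.105, adjusted p = 5.77e-12), a 2.49-fold rise without overlap. Gp9 (ENSMUSG00000030054), a subunit of the von Willebrand factor receptor, rose 2.35-fold to 26.5 ± 4.49 CPM, and Ppbp (ENSMUSG00000029372), another platelet chemokine, rose 5.12-fold to 5.55 ± 1.956 CPM.

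The summed level of all 15 erythroid markers in the table was 578 to 614 CPM in E6l2-Trp53-KO and 405 to 466 CPM in Trp53-KO libraries. Of these markers, 8 were under 1 CPM in both groups, and the defining genes Hba-a2 and Car1 were at 0 in all 6 libraries. The 16 megakaryocyte markers summed to 529 to 580 against 418 to 439 CPM, with 8 under 1 CPM. In bulk samples fewer cells of a type and less RNA per cell cannot be told apart, and the part that a few cells of these types have in these results, or cells of the other types whose marker lists are described next, was not tested.

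The promoters of these genes (250 bases before to 50 after the start, RefSeq, build GRCm38.p6) were read because the genes rose together with Gata1. The motif AGATAA, or TTATCT on the other strand, holds the core that GATA factors recognise. Of the 11 genes of both lists that rose, 9 had a promoter in the table and 3 of these held the motif, once each, while 3672 of all 32851 promoters (11.2%) held it. The 3 are printed 5′ to 3′ with the motif in capitals: Epor at chr9:21963527-21963826 (minus strand), Hbb-bs at chr7:103827879-103828178 (minus strand) and Pf4 at chr5:90772185-90772484 (plus strand). A match of letters is a description and not a binding site.
Epor: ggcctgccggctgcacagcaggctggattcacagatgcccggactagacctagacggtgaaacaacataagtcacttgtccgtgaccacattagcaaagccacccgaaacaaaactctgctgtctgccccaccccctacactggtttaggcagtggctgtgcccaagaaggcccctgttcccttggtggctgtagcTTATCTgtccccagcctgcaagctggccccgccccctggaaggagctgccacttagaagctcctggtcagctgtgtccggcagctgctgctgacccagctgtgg
Hbb-bs: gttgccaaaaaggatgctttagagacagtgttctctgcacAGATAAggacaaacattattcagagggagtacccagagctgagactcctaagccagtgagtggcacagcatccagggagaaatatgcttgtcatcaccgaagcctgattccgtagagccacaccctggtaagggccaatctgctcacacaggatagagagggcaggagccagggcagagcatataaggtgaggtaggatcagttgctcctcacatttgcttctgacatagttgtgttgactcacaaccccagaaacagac
Pf4: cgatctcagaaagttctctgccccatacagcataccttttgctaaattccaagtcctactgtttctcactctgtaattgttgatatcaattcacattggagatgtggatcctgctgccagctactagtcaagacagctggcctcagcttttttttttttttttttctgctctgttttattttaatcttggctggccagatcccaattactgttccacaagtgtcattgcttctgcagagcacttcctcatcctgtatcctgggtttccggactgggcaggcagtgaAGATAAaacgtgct

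The B and lymphoid progenitor list had 7 of 11 members higher and none lower (median log2 0.63). Il7r (ENSMUSG00000003882), the interleukin-7 receptor of lymphoid precursors, stood at 7.9, 8.34 and 8.53 CPM in the E6l2-Trp53-KO libraries and 2.07, 2.11 and 2.09 CPM in the Trp53-KO libraries (log2 fold change 1.98, SE 0.184, adjusted p = 2.2e-10), and Rag1 (ENSMUSG00000061311), a recombinase of antigen receptor genes, at 5.16, 4.94 and 4.79 CPM in the E6l2-Trp53-KO libraries and 2.26, 1.73 and 1.95 CPM in the Trp53-KO libraries (log2 fold change 1.32, SE 0.177, adjusted p = 4.9e-07). Both genes had narrow groups that did not overlap. Ighm (ENSMUSG00000076617) (immunoglobulin mu constant region) rose from 0.418 ± 0.147 to 2.05 ± 0.494 CPM and Cd79b (ENSMUSG00000040592), a signalling chain of the B cell receptor, from 6.59 ± 0.764 to 11.9 ± 1.92 CPM (adjusted p = 7.88e-07 and 1.62e-05). The 17 markers of the list summed to 328 to 377 CPM against 227 to 251 CPM. Pax5, Ms4a1 and Vpreb3 were under 1 CPM, and Cd2 and Ly6d were at 0. The T and NK cell list had 2 of 6 tested members higher and 1 lower, with 15 of its 18 markers under 1 CPM and Trbc1 and Trbc2 at 0. Cd8a (ENSMUSG00000053977) fell (0.562, 0.705 and 0.08703 against 1.82, 2.06 and 1.24 CPM, adjusted p = 0.000122), while Cd5 (ENSMUSG00000024669) rose from 0.0892 ± 0.0301 to 0.489 ± 0.0522 CPM and Thy1 (ENSMUSG00000032011) from 7.83 ± 0.976 to 11.1 ± 1.73 CPM.

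Mast cell, basophil and eosinophil genes moved both ways. The mast cell and basophil list had 6 of 21 members higher and 6 lower, or 3 lower with a fit on the groups of the contrast alone. Prss34 (ENSMUSG00000056399), a basophil protease, stood at 75.2, 61.4 and 73.1 CPM in the E6l2-Trp53-KO libraries and 35.5, 21.9 and 27.9 CPM in the Trp53-KO libraries, a 2.45-fold rise without overlap (log2 fold change 1.29, SE 0.154, adjusted p = 4.93e-08). Il1rl1 (ENSMUSG00000026069), the interleukin-33 receptor, rose 3.17-fold to 2.98 ± 0.0812 CPM, Cd200r3 (ENSMUSG00000036172) rose 2.099-fold, and Cma1 (ENSMUSG00000022225), mast cell chymase, rose 2.27-fold from under 1 CPM. The call of Cma1 was lost without replicate 2 or 3 of either genotype. These genes were named for the largest changes among called members, so only rises are named. The 6 lower members each changed by less. The summed level of the 33 markers was 3989 to 4409 CPM against 3723 to 3877 CPM, with 12 under 1 CPM and Gzmb and Fcer1a at 0. In the eosinophil list 3 of 7 members were higher, namely Gata1 and the granule protein genes Prg2 (ENSMUSG00000027073), from 0.678 ± 0.287 to 4.48 ± 1.86 CPM, and Prg3 (ENSMUSG00000027072), from 0.0993 ± 0.0146 to 0.681 ± 0.255 CPM. Xbp1 (ENSMUSG00000020484), a factor of secretory cells, was lower (log2 -0.36), and the summed level of the 12 eosinophil markers was lower, 126 to 137 against 147 to 150 CPM. Epx was under 1 CPM and Ear1 and Ear2 were at 0.

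Genes of the cells' own granulocyte and monocyte branch went both ways, with more called members lower than higher in the monocyte, primary granule and fate factor lists. The monocyte and macrophage list had 9 of 24 members lower and 4 higher (median log2 -0.17). Ccr2 (ENSMUSG00000049103), the chemokine receptor of monocytes, stood at 299, 185 and 198 CPM in the E6l2-Trp53-KO libraries and 497, 483 and 479 CPM in the Trp53-KO libraries, and Cd14 (ENSMUSG00000051439), the endotoxin co-receptor, at 24.7, 20.9 and 20.8 CPM in the E6l2-Trp53-KO libraries and 51.7, 49.4 and 54.7 CPM in the Trp53-KO libraries. Neither gene had overlapping groups (log2 fold change -1.09, SE 0.0992, adjusted p = 1.21e-10 for Ccr2; log2 fold change -1.23, SE 0.0906, adjusted p = 8.42e-13 for Cd14). Cx3cr1 (ENSMUSG00000052336) and Fcgr1 (ENSMUSG00000015947) rose from 0.183 ± 0.0897 to 0.676 ± 0.137 CPM and from 0.05904 ± 0.102 to 0.357 ± 0.138 CPM, both under 1 CPM. The summed level of the 28 monocyte markers was 1620 to 2115 CPM against 2812 to 2878 CPM, with 8 under 1 CPM and C1qa at 0.

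The primary granule list had 6 of 16 members lower and 2 higher. Ms4a3 (ENSMUSG00000024681), a marker of granulocyte and monocyte progenitors, stood at 135, 91.6 and 87.7 CPM in the E6l2-Trp53-KO libraries and 303, 295 and 316 CPM in the Trp53-KO libraries (log2 fold change -1.54, SE 0.114, adjusted p = 1.06e-12). Elane (ENSMUSG00000020125), neutrophil elastase, stood at 7.34, 6.02 and 7.22 CPM in the E6l2-Trp53-KO libraries and 15.6, 13.5 and 13.3 CPM in the Trp53-KO libraries (log2 fold change -1.04, SE 0.159, adjusted p = 5.16e-06). Both fell without overlap. Prss57 (ENSMUSG00000020323), a granule protease, fell 1.71-fold, while Cd63 (ENSMUSG00000025351), a tetraspanin of granules and lysosomes, rose 2.99-fold, from 49.5 ± 4.72 to 148 ± 5.39 CPM (adjusted p = 2.44e-17). Mpo (ENSMUSG00000009350), myeloperoxidase, stood at 2244, 2903 and 2929 CPM in the E6l2-Trp53-KO libraries and 2609, 2728 and 2865 CPM in the Trp53-KO libraries (adjusted p = 0.884), with overlapping groups. In the mature neutrophil list 5 of 18 were higher and 3 lower, or 3 higher and 3 lower without E6l2-Trp53-KO replicate 3. S100a8 (ENSMUSG00000056054) and S100a9 (ENSMUSG00000056071), the calprotectin subunits, rose to 4.97 ± 0.539 and 7.78 ± 1.603 CPM from 2.15 ± 0.172 and 3.04 ± 0.532 CPM. Csf3r (ENSMUSG00000028859), the G-CSF receptor, fell 2.02-fold to 11.9 ± 1.29 CPM, and the iron-binding Lcn2 (ENSMUSG00000026822) fell 2.67-fold. The 26 neutrophil markers summed to 435 to 480 CPM against 443 to 490 CPM, with 13 under 1 CPM and Fpr1 at 0.

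Of the fate transcription factors 7 of 23 were lower and 2 higher. Gfi1b (ENSMUSG00000026815), a transcriptional repressor needed for erythroid and megakaryocyte development, stood at 18.2, 18.7 and 23.4 CPM in the E6l2-Trp53-KO libraries and 4.99, 3.84 and 4.499 CPM in the Trp53-KO libraries, a 4.495-fold rise without overlap (log2 fold change 2.17, SE 0.135, adjusted p = 1.02e-14). Cebpb (ENSMUSG00000056501), a factor of emergency granulopoiesis, fell from 20.4 ± 1.79 to 14.7 ± 1.63 CPM, Id2 (ENSMUSG00000020644) fell from 2.58 ± 0.102 to 1.32 ± 0.4799 CPM, and Egr1 (ENSMUSG00000038418), an immediate early factor that favours the monocyte branch, stood at 9.59, 4.52 and 7.14 CPM in the E6l2-Trp53-KO libraries and 32.4, 17.6 and 15.1 CPM in the Trp53-KO libraries (log2 fold change -1.60, SE 0.325, adjusted p = 0.00033). Cebpa (ENSMUSG00000034957), the lead factor of granulocyte progenitors, stood at 201, 245 and 250 CPM in the E6l2-Trp53-KO libraries and 263, 261 and 275 CPM in the Trp53-KO libraries (log2 fold change -0.20, SE 0.0584, adjusted p = 0.0119), and its call was lost without E6l2-Trp53-KO replicate 1, without Trp53-KO replicate 3 and with a fit on the groups of the contrast alone. Stem and progenitor genes had 4 of 25 higher and 6 lower. Tal1 (ENSMUSG00000028717), a partner of GATA factors, rose from 71.02 ± 1.45 to 107 ± 5.68 CPM (log2 0.59) and the chromatin organiser Satb1 (ENSMUSG00000023927) rose by log2 0.34, whereas Lmo2 (ENSMUSG00000032698), which bridges TAL1 and GATA factors, fell from 327 ± 11.8 to 261 ± 19.6 CPM and Hoxa7 (ENSMUSG00000038236) from 15.8 ± 0.542 to 12.3 ± 0.914 CPM. Kit (ENSMUSG00000005672), the stem cell factor receptor, stood at 451 ± 7.19 against 456 ± 23.03 CPM (adjusted p = 0.867). Growth factor receptor genes and their relays had 7 of 32 higher, among them Pim2, Il7r and Il1rl1, and 9 lower.

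**Figure D2:**
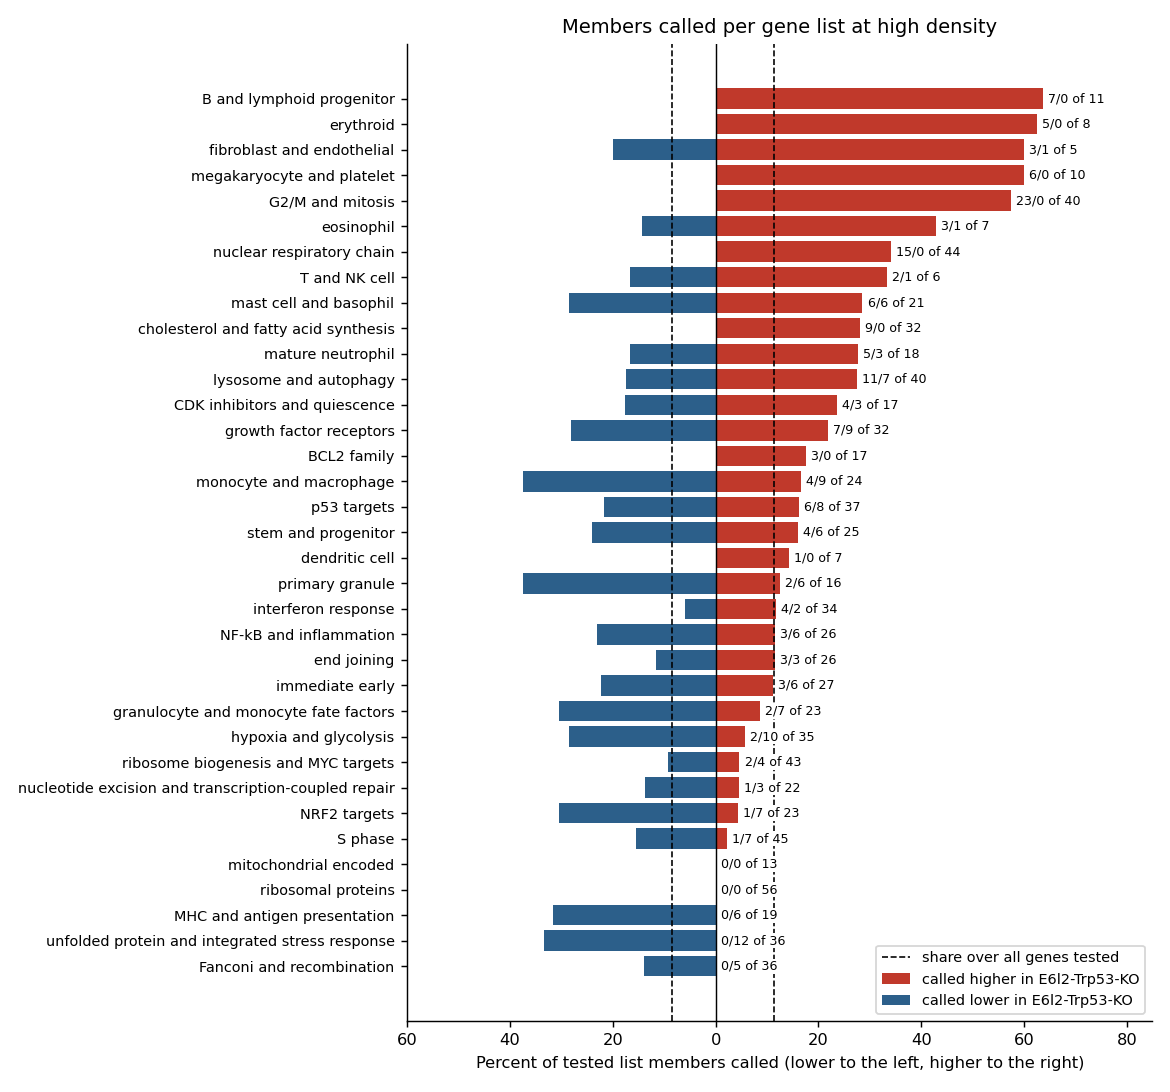
Percent of the tested members of each gene list that were called lower (to the left) or higher (to the right) in E6l2-Trp53-KO cells at high density, with dashed lines at the shares over all genes tested (8.55% and 11.3%). The lymphoid, erythroid, megakaryocyte, G2/M and fibroblast and endothelial lists reach farthest to the right, and the unfolded protein, MHC and Fanconi lists have bars to the left only.

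Cell cycle genes moved by small amounts. The G2/M and mitosis list had 23 of 40 members higher and none lower, with a median log2 of 0.17, with none higher and 1 lower in DMSO (median -0.01) and 5 higher and 2 lower in etoposide. The shares over all genes were 8.14% higher and 6.79% lower in DMSO, and 12.0% higher and 12.1% lower in etoposide, so the etoposide count of higher members was near its background. Ccnb1 (ENSMUSG00000041431), cyclin B1, stood at 179, 163 and 162 CPM in the E6l2-Trp53-KO libraries and 139, 137 and 141 CPM in the Trp53-KO libraries, and Ccnb2 (ENSMUSG00000032218), cyclin B2, at 148, 138 and 141 CPM in the E6l2-Trp53-KO libraries and 123, 115 and 119 CPM in the Trp53-KO libraries. Both were separate between genotypes (log2 0.27, adjusted p = 0.000394 for Ccnb1; log2 0.26, adjusted p = 5.95e-05 for Ccnb2). Ube2c (ENSMUSG00000001403), a ubiquitin-conjugating enzyme of the anaphase-promoting complex, rose 1.23-fold and Cenpa (ENSMUSG00000029177), the centromeric histone, 1.21-fold. In the genotype by density interaction edgeR called no member of the list, with 27 of 40 at an unadjusted p under 0.05 (1127 of 14059 over all genes), and DESeq2 called 2 of the 40. The count of 23 fell to 11 without E6l2-Trp53-KO replicate 1, to 15 without its replicate 3 or without Trp53-KO replicate 1, and to 12 with a fit on the contrast's groups alone.

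The S phase list had 7 of 45 members lower and 1 higher. Mcm6 (ENSMUSG00000026355), a subunit of the replicative helicase, stood at 425, 444 and 418 CPM in the E6l2-Trp53-KO libraries and 490, 540 and 573 CPM in the Trp53-KO libraries (log2 fold change -0.32, SE 0.0587, adjusted p = 0.000105), and Ung (ENSMUSG00000029591) (uracil glycosylase) and Pola1 (ENSMUSG00000006678) (polymerase alpha) had log2 fold changes of -0.28 and -0.20. Ccne1 (ENSMUSG00000002068), cyclin E1, rose 1.44-fold. Groups were separate for all 4, but 1 S phase gene was called lower without Trp53-KO replicate 3, 4 without E6l2-Trp53-KO replicate 2 or 3, and 11 without E6l2-Trp53-KO etoposide replicate 3 in the joint fit. Ung and Pola1 lost their calls without 1 of several libraries. Of the inhibitors of cyclin-dependent kinases and related genes, 4 of 17 were higher and 3 lower (5 lower without E6l2-Trp53-KO replicate 1). Cdkn2a (ENSMUSG00000044303), the locus of p16 and p19ARF, stood at 61.9, 76.5 and 80.6 CPM in the E6l2-Trp53-KO libraries and 10.1, 8.71 and 10.2 CPM in the Trp53-KO libraries, far apart in every library (log2 fold change 2.91, SE 0.138, adjusted p = 7.89e-18). Tob1 (ENSMUSG00000037573), an antiproliferative gene, rose 1.61-fold and Klf6 (ENSMUSG00000000078) fell 1.46-fold. Myc (ENSMUSG00000022346) stood at 195, 262 and 266 CPM in the E6l2-Trp53-KO libraries and 251, 267 and 265 CPM in the Trp53-KO libraries (adjusted p = 0.301), with overlapping groups.

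**Figure D3:**
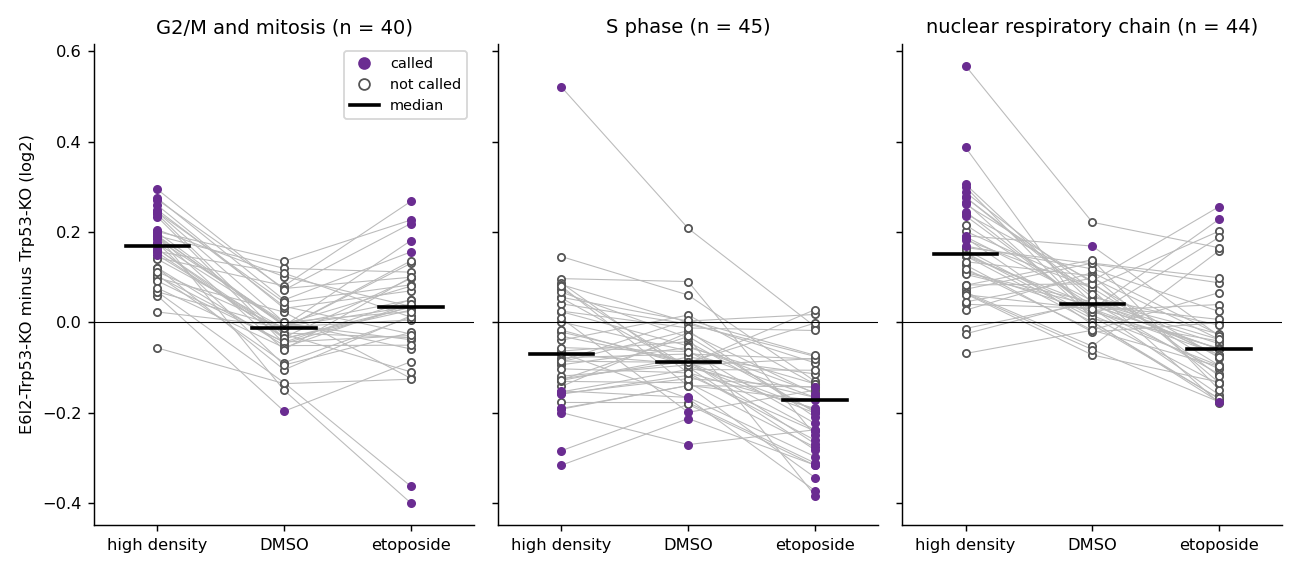
Log2 difference between E6l2-Trp53-KO and Trp53-KO cells at high density, in DMSO and in etoposide for each tested member of 2 cell cycle lists and the respiratory chain list, 1 point per gene, filled where called, with a bar at the median. At high density the G2/M and respiratory chain points sit mostly above 0 (medians 0.17 and 0.15), and in DMSO their medians are -0.01 and 0.04.

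With Trp53 edited in both groups, p53 target genes were mixed, with 6 of 37 higher and 8 lower (median log2 -0.02). Perp (ENSMUSG00000019851), a p53-induced membrane protein of cell death, stood at 3.23, 5.81 and 4.92 CPM in the E6l2-Trp53-KO libraries and 0.619, 0.826 and 0.673 CPM in the Trp53-KO libraries (log2 fold change 2.71, SE 0.214, adjusted p = 4.13e-12), and Btg2 (ENSMUSG00000020423), an antiproliferative immediate early gene, at 1.33, 2.41 and 2.04 CPM in the E6l2-Trp53-KO libraries and 0.509, 0.537 and 0.354 CPM in the Trp53-KO libraries (log2 fold change 2.03, SE 0.237, adjusted p = 3.12e-08). Phlda3 (ENSMUSG00000041801), which restrains Akt, stood at 3.41, 3.53 and 3.65 CPM in the E6l2-Trp53-KO libraries and 1.71, 1.69 and 1.91 CPM in the Trp53-KO libraries (log2 fold change 0.99, SE 0.1505, adjusted p = 4.99e-06). All 3 rose without overlap. Cd80 (ENSMUSG00000075122) stood at 0.49 ± 0.184 against 0.936 ± 0.233 CPM (log2 -0.92, adjusted p = 0.0428), a call that was lost without each of 4 libraries in turn (adjusted p = 0.0728 to 0.211) and with a fit on the groups of the contrast alone (0.0917, or 0.0903 with the replicate block). The count of 8 lower members was 4 without E6l2-Trp53-KO replicate 2 and 5 without Trp53-KO replicate 1. Perp, Btg2, Phlda3 and Cd80 were named as the called members with the largest change, and the other lower members changed by less. The best known targets did not pass the test. Cdkn1a (ENSMUSG00000023067), the gene of p21, had 10.2 ± 1.36 against 11.9 ± 0.443 CPM (log2 -0.22, adjusted p = 0.334), Mdm2 (ENSMUSG00000020184) 31.4 ± 3.22 against 30.04 ± 0.2203 CPM, Ccng1 (ENSMUSG00000020326) 45.9 ± 1.14 against 50.1 ± 1.56 CPM, Bax (ENSMUSG00000003873) 39.8 ± 2.19 against 39.6 ± 3.07 CPM and Bbc3 (ENSMUSG00000002083) 13.8 ± 1.09 against 12.4 ± 0.592 CPM (adjusted p between 0.113 for Ccng1 and 0.9499 for Bax). In the BCL2 family 3 of 17 were higher and none lower. Hrk (ENSMUSG00000046607), a BH3-only killer protein, rose from 2.15 ± 0.282 to 7.25 ± 2.23 CPM, Bmf (ENSMUSG00000040093), another BH3-only gene, from 5.07 ± 0.203 to 7.72 ± 1.35 CPM and Bcl2l14 (ENSMUSG00000030200) from 0.1996 ± 0.115 to 0.612 ± 0.122 CPM.

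Apart from Xrcc5, the DNA repair genes that were called differed by small amounts. In the end joining list both counts of called members were near the shares over all genes (11.3% higher, 8.55% lower). Xrcc5 (ENSMUSG00000026187), the gene of Ku80, which holds broken ends for joining, stood at 1.05, 0.747 and 0.827 CPM in the E6l2-Trp53-KO libraries and 2.98, 2.77 and 3.75 CPM in the Trp53-KO libraries (log2 fold change -1.84, SE 0.1601, adjusted p = 4.49e-11), low in both groups and without overlap. In the rest of the end joining list (26 tested, 3 higher and 3 lower in all, with the higher count 0 without E6l2-Trp53-KO replicate 3 and 1 without Trp53-KO replicate 2) Nhej1 (ENSMUSG00000026162), the gene of XLF, fell 1.33-fold, Poll (ENSMUSG00000025218), polymerase lambda, rose 1.25-fold and H2ax (ENSMUSG00000049932) rose 1.19-fold. Fanconi and recombination genes had 5 of 36 lower and none higher, with small differences, as for Nbn (ENSMUSG00000028224) (log2 -0.26), Fancb (ENSMUSG00000047757) (log2 -0.28), Dna2 (ENSMUSG00000036875) (log2 -0.18) and Uimc1 (ENSMUSG00000025878) (log2 -0.18). That count was 1 without E6l2-Trp53-KO replicate 3, 2 without Trp53-KO replicate 3, 3 without E6l2-Trp53-KO or Trp53-KO replicate 2, and 1 with a fit on the groups of the contrast alone. In nucleotide excision and transcription-coupled repair 3 of 22 were lower, among them Gtf2h4 (ENSMUSG00000001524), a TFIIH subunit, at 21.4, 18.8 and 19.7 CPM in the E6l2-Trp53-KO libraries and 27.9, 29.5 and 30.8 CPM in the Trp53-KO libraries (log2 fold change -0.55, SE 0.0705, adjusted p = 1.69e-07), and the damage sensor Xpc (ENSMUSG00000030094) (log2 -0.29, adjusted p = 0.00112), with Ercc5 (ENSMUSG00000026048) (log2 -0.31, adjusted p = 0.0115). Gtf2h5 (ENSMUSG00000034345), another TFIIH subunit, was the 1 member that was higher (log2 0.15, adjusted p = 0.0287). The calls of Poll and Nbn were lost without E6l2-Trp53-KO replicate 3. Those of Nhej1, Fancb, Dna2, Uimc1, Ercc5 and Gtf2h5 were each lost without 1 of several libraries. H2ax kept its call only where the library left out was E6l2-Trp53-KO replicate 2.

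Nuclear genes of the respiratory chain had 15 of 44 members higher and none lower (median log2 0.15), with 1 of 44 higher in DMSO (median 0.04), where 8.14% of all genes were higher. In the genotype by density interaction neither edgeR nor DESeq2 called a member, and 6 of the 44 had an unadjusted p under 0.05, so a difference between those conditions was not shown. Cox6a1 (ENSMUSG00000041697), a subunit of cytochrome oxidase, stood at 378, 353 and 397 CPM in the E6l2-Trp53-KO libraries and 270, 237 and 254 CPM in the Trp53-KO libraries (log2 fold change 0.57, SE 0.0853, adjusted p = 3.92e-06), and Ndufa1 (ENSMUSG00000016427), a subunit of complex I, at 157, 137 and 153 CPM in the E6l2-Trp53-KO libraries and 117, 113 and 112 CPM in the Trp53-KO libraries (log2 fold change 0.39, SE 0.0955, adjusted p = 0.00295). Ndufb3 (ENSMUSG00000026032) rose 1.24-fold and Cox6c (ENSMUSG00000014313) 1.23-fold. Groups did not overlap for these 4, but the count of 15 fell to 6 without Trp53-KO replicate 2, to 7 without E6l2-Trp53-KO replicate 3 and to 8 without E6l2-Trp53-KO replicate 1 or Trp53-KO replicate 3. None of the 13 mitochondrially encoded genes and none of the 56 cytosolic ribosomal protein genes tested was called by edgeR or by DESeq2, and 2 of these 56 and none of these 13 had an unadjusted p under 0.05 in edgeR, where 4292 of 14059 genes did. Ribosome biogenesis and MYC target genes had 2 of 43 higher (Mxd3 (ENSMUSG00000021485), log2 0.43, adjusted p = 0.0194, and Mxd4 (ENSMUSG00000037235), log2 0.24, adjusted p = 0.00195, which both compete with MYC for MAX) and 4 lower, among them Rrp1b (ENSMUSG00000058392) (log2 -0.29, adjusted p = 0.00238) and Dkc1 (ENSMUSG00000031403) (log2 -0.21, adjusted p = 0.0109). For this list the higher count was below and the lower count near the share over all genes (11.3% and 8.55%). The lower count was 0 without E6l2-Trp53-KO replicate 1 and 2 without Trp53-KO replicate 2 or 3. The higher count was 4 without E6l2-Trp53-KO etoposide replicate 3 and 1 without E6l2-Trp53-KO replicate 3 or Trp53-KO replicate 2.

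Cholesterol and fatty acid synthesis genes had 9 of 32 higher and none lower (median log2 0.11), a count that fell to 4 without E6l2-Trp53-KO replicate 3 or Trp53-KO replicate 2 and to 5 without Trp53-KO replicate 1. Mvd (ENSMUSG00000006517), of the mevalonate pathway, stood at 34.3, 28.1 and 30.3 CPM in the E6l2-Trp53-KO libraries and 21.03, 19.7 and 20.8 CPM in the Trp53-KO libraries (log2 fold change 0.59, SE 0.121, adjusted p = 0.00038). Acat2 (ENSMUSG00000023832) rose 1.27-fold, Dhcr7 (ENSMUSG00000058454) 1.23-fold and Fdps (ENSMUSG00000059743) 1.17-fold, all enzymes of sterol synthesis. Hypoxia and glycolysis genes had 10 of 35 lower and 2 higher. Pfkp (ENSMUSG00000021196), a phosphofructokinase, stood at 182, 186 and 174 CPM in the E6l2-Trp53-KO libraries and 236, 280 and 270 CPM in the Trp53-KO libraries (log2 fold change -0.54, SE 0.0526, adjusted p = 6.88e-10), and Ero1a (ENSMUSG00000021831), an oxidase of protein folding that hypoxia induces, at 485, 422 and 372 CPM in the E6l2-Trp53-KO libraries and 581, 623 and 627 CPM in the Trp53-KO libraries (log2 fold change -0.52, SE 0.0675, adjusted p = 2.69e-07). Vegfa (ENSMUSG00000023951) fell 1.31-fold and Ak4 (ENSMUSG00000028527), a mitochondrial adenylate kinase, rose 1.86-fold. The lower count was 3 without E6l2-Trp53-KO replicate 3, 4 without Trp53-KO replicate 2 and 6 without Trp53-KO replicate 3. Slc16a3 (ENSMUSG00000025161), the lactate exporter, stood at 67.7, 63.2 and 46.04 CPM in the E6l2-Trp53-KO libraries and 43.3, 49.1 and 47.4 CPM in the Trp53-KO libraries (log2 fold change 0.34, SE 0.123, adjusted p = 0.0461). Its groups overlapped, and its call was lost without each of 5 libraries in turn. Fdps also lost its call without 1 of several libraries.

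Genes of the unfolded protein and integrated stress response had 12 of 36 lower and none higher. Psph (ENSMUSG00000029446), of serine synthesis, stood at 23.7, 23.2 and 22.7 CPM in the E6l2-Trp53-KO libraries and 32.5, 36.7 and 39.3 CPM in the Trp53-KO libraries (log2 fold change -0.64, SE 0.0922, adjusted p = 1.95e-06), and Trib3 (ENSMUSG00000032715), a pseudokinase induced by ATF4 and CHOP, at 4.92, 7.55 and 8.14 CPM in the E6l2-Trp53-KO libraries and 10.1, 11.2 and 12.7 CPM in the Trp53-KO libraries (log2 fold change -0.73, SE 0.185, adjusted p = 0.00383). Chac1 (ENSMUSG00000027313), a glutathione-degrading enzyme, fell 1.41-fold (adjusted p = 0.000966), although its libraries overlapped. Vldlr (ENSMUSG00000024924), a lipoprotein receptor that ATF4 can induce, had 1 count over the 3 E6l2-Trp53-KO libraries against 153 over the 3 Trp53-KO libraries, where it stood at 1.93 ± 0.243 CPM (adjusted p = 8.78e-11), and no fold is given. Trib3 lost its call without E6l2-Trp53-KO replicate 1. Without 1 library at a time, 10 to 14 members of this list were lower. NRF2 targets had 7 of 23 lower and 1 higher. Gstm1 (ENSMUSG00000058135), a glutathione transferase, stood at 64.7, 47.5 and 50.5 CPM in the E6l2-Trp53-KO libraries and 103, 104 and 105 CPM in the Trp53-KO libraries (log2 fold change -0.94, SE 0.0857, adjusted p = 1.49e-10), with no overlap. Gsr (ENSMUSG00000031584) (glutathione reductase), Pgd (ENSMUSG00000028961) (of the pentose phosphate pathway) and Slc7a11 (ENSMUSG00000027737) (the cystine importer) had log2 fold changes of -0.39, -0.37 and -0.50. Lysosome and autophagy genes were split, 11 of 40 higher and 7 lower. Map1lc3a (ENSMUSG00000027602), an LC3 gene of autophagosomes, rose 2.07-fold and Wipi1 (ENSMUSG00000041895) 1.48-fold, while Sgsh (ENSMUSG00000005043), a heparan sulfatase, fell 2.19-fold and Tfec (ENSMUSG00000029553) 1.52-fold. Without Trp53-KO replicate 2 the higher count was 7.

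MHC and antigen presentation genes had 6 of 19 lower and none higher. The lower count was 10 without E6l2-Trp53-KO etoposide replicate 3 in the joint fit, and 4 to 8 without 1 high density library, with 1 member higher without E6l2-Trp53-KO or Trp53-KO replicate 1. H2-DMb1 (ENSMUSG00000079547), which loads peptides on class II molecules, stood at 16.3, 21.7 and 19.4 CPM in the E6l2-Trp53-KO libraries and 51.9, 46.9 and 53.03 CPM in the Trp53-KO libraries (log2 fold change -1.41, SE 0.0783, adjusted p = 5.17e-16), and Tap1 (ENSMUSG00000037321), the peptide transporter of class I loading, at 196, 213 and 210 CPM in the E6l2-Trp53-KO libraries and 240, 251 and 255 CPM in the Trp53-KO libraries (log2 fold change -0.27, SE 0.0547, adjusted p = 0.00032). The groups of both were separate. H2-Q4 (ENSMUSG00000035929) and H2-Q7 (ENSMUSG00000060550) had log2 fold changes of -0.36 and -0.49, and reads of class I genes can be shared between copies. Interferon response genes had 4 of 34 higher and 2 lower, near or below the shares over all genes (11.3% and 8.55%). The sensor Ifih1 (ENSMUSG00000026896) (MDA5) fell 1.39-fold and Gbp7 (ENSMUSG00000040253) 1.47-fold, while Irf7 (ENSMUSG00000025498) rose 1.47-fold and Oasl1 (ENSMUSG00000041827) stood at 0.978 ± 0.209 against 0.467 ± 0.128 CPM (log2 1.06, adjusted p = 0.04696). The call of Oasl1 was lost without each of the 6 libraries in turn (adjusted p = 0.0571 to 0.196), with no filter on low counts (0.0519) and with DESeq2 (0.0728). NF-kB and inflammation genes had 3 of 26 higher, near the share over all genes, and 6 lower. Their higher count was 5 without Trp53-KO replicate 1 and 2 without its replicate 2 or 3. Nlrp3 (ENSMUSG00000032691), the inflammasome sensor, stood at 8.01, 5.72 and 6.31 CPM in the E6l2-Trp53-KO libraries and 16.9, 12.97 and 11.8 CPM in the Trp53-KO libraries (log2 fold change -1.05, SE 0.133, adjusted p = 1.74e-07). Tnfaip2 (ENSMUSG00000021281) fell 1.51-fold, and Relb (ENSMUSG00000002983) and the chemokine gene Ccl3 (ENSMUSG00000000982) rose 1.52-fold and 1.46-fold.

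Immediate early genes had 6 of 27 lower and 3 higher, the higher count near the share over all genes. Egr2 (ENSMUSG00000037868) fell from 2.86 ± 0.686 to 0.921 ± 0.2404 CPM and Fos (ENSMUSG00000021250) stood at 4.99, 5.43 and 5.44 CPM in the E6l2-Trp53-KO libraries and 13.7, 9.21 and 7.76 CPM in the Trp53-KO libraries (log2 fold change -0.95, SE 0.278, adjusted p = 0.0122). Trp53-KO replicate 1 was the highest library for Egr1, Egr2 and Fos, and without it 2 members of the list were lower. Itgax (ENSMUSG00000030789) was the 1 of 7 dendritic cell genes that was higher (2.66 ± 0.572 against 1.64 ± 0.0707 CPM), with 10 of the 14 markers under 1 CPM, a summed level of 483 to 518 against 526 to 528 CPM, and Cd209a, Batf3 and Irf4 at 0. Of the fibroblast and endothelial genes 3 of 5 were higher and 1 lower. Pecam1 (ENSMUSG00000020717), an adhesion molecule that blood progenitors also carry, stood at 111, 91.6 and 96 CPM in the E6l2-Trp53-KO libraries and 65.97, 58.2 and 64.7 CPM in the Trp53-KO libraries (log2 fold change 0.66, SE 0.0551, adjusted p = 1.56e-11) and Egfl7 (ENSMUSG00000026921) rose 1.44-fold, while Pdgfrb (ENSMUSG00000024620) stood at 38.3 ± 6.87 against 46.2 ± 0.482 CPM (adjusted p = 0.0186). The 15 markers summed to 283 to 305 against 210 to 223 CPM, with 11 under 1 CPM and Col3a1 and Cdh5 at 0.

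The same genotypes were then compared without crowding. In DMSO 2098 genes (14.9%) were called, 1144 higher (8.14%) and 954 lower (6.79%). This contrast has no library in common with the high density contrast. Both come from the joint fit, which shares its estimate of spread between all untransformed groups. Of the genes called at high density, 1442 were also called in DMSO, which is 51.6% of the high density calls and 68.7% of the DMSO calls, and 1438 of them moved in the same direction. Across genes the 2 sets of log2 fold changes had a Pearson r of 0.671 (14059 genes, which are not independent replicates). Of the 1438, 868 were larger in size at high density, with a median size of 0.51 against 0.49 in DMSO. In etoposide 3388 genes (24.1%) were called, 1692 higher (12.0%) and 1696 lower (12.1%), or 2045 without E6l2-Trp53-KO etoposide replicate 3. Of the high density calls 1421 were shared with etoposide, 1383 in the same direction, and 1071 genes had the same direction in all 3 treatments, 658 higher and 413 lower. Tfpi was 22.1-fold higher in DMSO and 11.3-fold in etoposide, and Cdkn2a 5.73-fold and 3.62-fold. Arap2 had log2 fold changes of -2.51 in DMSO and -2.41 in etoposide, beside -2.27 at high density. By list, 5 of 8 erythroid genes were higher in DMSO and 4 in etoposide, with 1 lower in each. Megakaryocyte genes had 7 and 6 of 10 higher, and B and lymphoid progenitor genes 6 and 5 of 11, with none lower. MHC genes had 11 and 13 of 19 lower, with 1 higher in etoposide. Cholesterol and fatty acid genes had 8 of 32 higher and none lower in DMSO, but none higher and 11 lower in etoposide.

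The genotype by density interaction, which tests whether the genotype difference itself was different at high density and in DMSO, was called for 47 genes (0.334%), 36 with a more positive difference at high density (0.256%) and 11 with a more negative one (0.0782%). The count ranged from 19 without E6l2-Trp53-KO high density replicate 3 to 180 without its replicate 1, and 1127 genes had an unadjusted p under 0.05. In DMSO Pim2 stood at 6.82 ± 1.22 CPM in Trp53-KO cells and at 66.2 ± 9.72 CPM in cells with both edits, so its difference was larger at high density by log2 1.07 (SE 0.2295, adjusted p = 0.0224). Wfdc17 (ENSMUSG00000069792), a small secreted protein of myeloid cells, stood at 28.2 ± 2.71 CPM (Trp53-KO) and 29.4 ± 4.34 CPM (with both edits) in DMSO and at 70.01, 75.9 and 73.4 CPM in the E6l2-Trp53-KO libraries and 35.7, 27.8 and 26.2 CPM in the Trp53-KO libraries at high density (interaction log2 1.24, adjusted p = 0.000202). In DMSO its difference did not pass the test (adjusted p = 0.842), and when crowded its groups stood apart. Ifi209 (ENSMUSG00000043263), an interferon-inducible gene with close paralogues that may share reads, rose from 1.32 ± 0.211 to 10.5 ± 2.11 CPM at high density against 2.05 ± 0.242 to 5.16 ± 0.611 CPM in DMSO (interaction log2 1.64, adjusted p = 0.00439). Sptssb (ENSMUSG00000043461), a subunit of serine palmitoyltransferase, was at 20.9 ± 2.54 CPM (Trp53-KO) and 20.3 ± 1.08 CPM (with both edits) in DMSO and at 7.63 ± 1.796 CPM in crowded Trp53-KO against 17.1 ± 1.297 CPM in crowded E6l2-Trp53-KO cells (interaction log2 1.22). Rabgap1l (ENSMUSG00000026721) had an interaction of 1.19. The interactions of Pim2 and Rabgap1l lost their calls without 1 of several libraries, while those of Wfdc17, Ifi209 and Sptssb were called whichever library was left out.

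Thbs1 (ENSMUSG00000040152), thrombospondin 1, was lower in E6l2-Trp53-KO than in Trp53-KO cells in DMSO (11.8 ± 1.004 against 26.9 ± 3.36 CPM, log2 -1.19, adjusted p = 1.49e-07). At high density it stood at 17.5, 26.6 and 24.6 CPM in the E6l2-Trp53-KO libraries and 26.5, 25.9 and 24.1 CPM in the Trp53-KO libraries, with overlapping groups (adjusted p = 0.493; interaction log2 1.03, adjusted p = 0.0116). Genes with a more negative difference at high density included Htr1b, at 7.697 ± 0.64 against 15.7 ± 1.5 CPM in DMSO and 3.53 ± 0.639 against 15.8 ± 0.162 CPM when crowded (interaction -1.12). Trem1 (ENSMUSG00000042265), an amplifying receptor of inflammation, stood at 15.1, 7.76 and 9.704 CPM in the E6l2-Trp53-KO libraries and 28.7, 25.5 and 23.98 CPM in the Trp53-KO libraries (interaction -0.86, adjusted p = 0.00439). With a fit on the groups of the contrast alone the interaction calls of Trem1 and Nabp1 were lost (adjusted p = 0.124 and 0.0739). For Cd200r4 (ENSMUSG00000062082), Nabp1 (ENSMUSG00000026107), which binds single-stranded DNA, Gimap8 (ENSMUSG00000064262) and Plpp5 (ENSMUSG00000031570) the interaction was -0.53, -0.51, -0.46 and -0.42. The calls of Thbs1, Gimap8 and Plpp5 were lost without 1 of several libraries. Cd200r4 and Nabp1 were higher in E6l2-Trp53-KO cells in DMSO (log2 0.34 and 0.23) and lower at high density (log2 -0.19 and -0.28), although the high density call of Cd200r4 was lost without each of 5 libraries in turn.

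**Figure D4:**
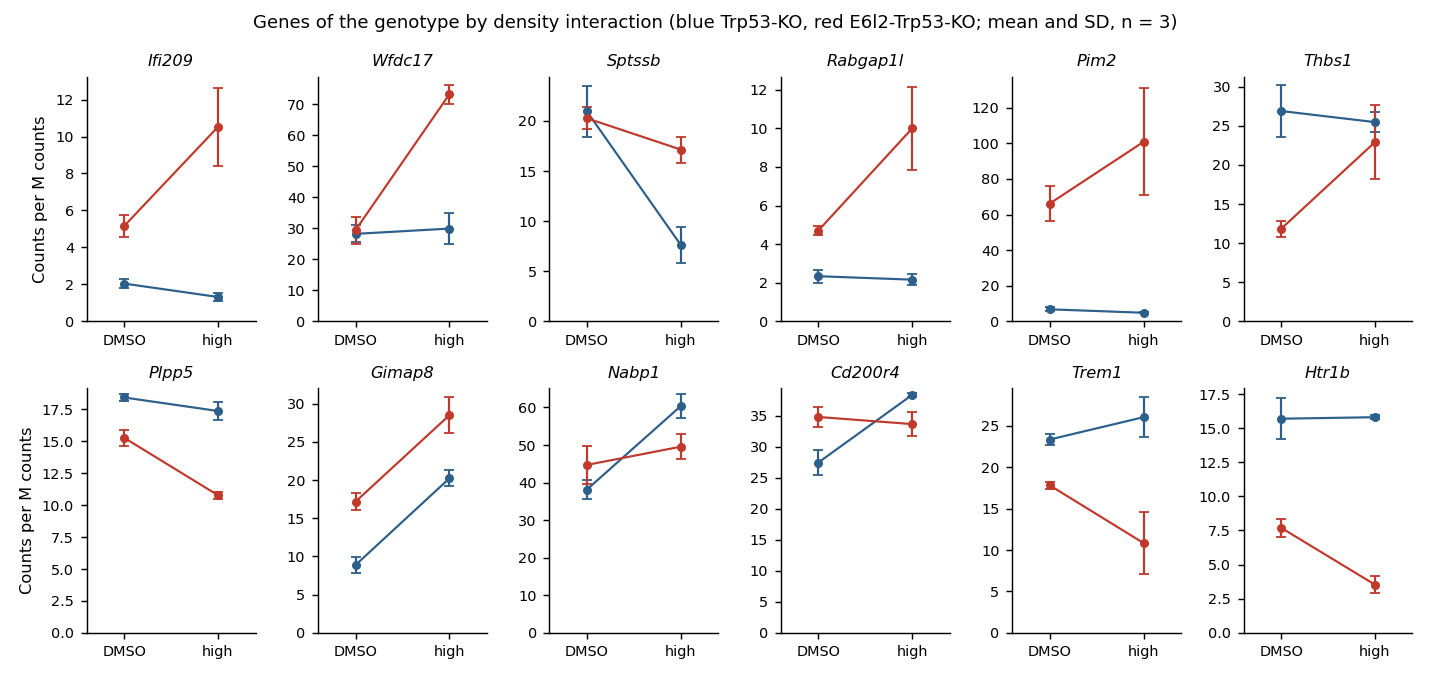
Level (counts per M counts) in DMSO and at high density of the 12 genes named for the genotype by density interaction. Points are group means with SD bars (n = 3), in blue for Trp53-KO and red for E6l2-Trp53-KO cells. The Wfdc17 means are 28.2 and 29.4 in DMSO and 29.9 and 73.1 when crowded, and Thbs1 is apart in DMSO and overlaps when crowded.

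The Ercc6l2 edit with Trp53 intact gave fewer calls. In E6l2-KO against wildtype cells at high density 438 genes (3.12%) were called, 127 higher (0.903%) and 311 lower (2.21%). Of these, 254 were also called in the E6l2-Trp53-KO against Trp53-KO comparison (58.0% of the smaller set and 9.09% of the larger). They moved in the same direction for 129 and in the opposite direction for 125. The 2 contrasts have no library in common, but they come from the same joint fit. Across genes the Pearson r was -0.016. Spint2, Sorl1, Arap2 and Prkcb were lower with the Ercc6l2 edit on both backgrounds (log2 -2.54, -1.30, -1.78 and -1.33 with Trp53 intact), and Calml4, Cdkn2a, Icos, Dmrta2 and Klra1 were higher on both (log2 5.74, 1.43, 1.13, 0.87 and 1.201). Calml4 went from 0.285 ± 0.1001 CPM in wildtype to 15.3 ± 2.04 CPM in E6l2-KO cells. Pim2, Gata1 and Gfi1b did not pass the test with Trp53 intact (log2 -0.04, -0.59 and -0.02; adjusted p = 0.988, 0.7396 and 0.992).

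The difference between the effect of the Ercc6l2 edit with and without the Trp53 edit was itself put to a test (1499 genes called, 10.7%), 911 with a more positive (6.48%) and 588 with a more negative (4.18%) effect in Trp53-edited cells. With Trp53 intact Tfpi went from 27.2 ± 0.597 CPM in wildtype down to 7.15 ± 0.194 CPM in E6l2-KO cells, against its rise on the Trp53-edited background (interaction log2 7.04, SE 0.243, adjusted p = 2.05e-21). Ptprcap (ENSMUSG00000045826), a phosphatase-associated protein of lymphocytes, stood at 34.02, 38.5 and 46.7 CPM in the E6l2-Trp53-KO libraries and 4.48, 3.39 and 3.97 CPM in the Trp53-KO libraries, with 9.65 ± 0.858 CPM in E6l2-KO cells and 36.5 ± 1.25 CPM in wildtype (interaction 5.24). For both genes wildtype and E6l2-Trp53-KO cells were high and E6l2-KO and Trp53-KO cells were low. Tnni1, Hbb-bt, Dmrta2 and Capn2 had interactions of 6.55, 5.33, 4.83 and 4.79. Limch1 (ENSMUSG00000037736), an actin-binding gene, had 3.08 ± 0.194 CPM in wildtype and 17.5 ± 1.59 CPM with the Ercc6l2 edit alone, whereas Trp53-KO and E6l2-Trp53-KO cells had 21.4 ± 1.63 and 19.1 ± 5.53 CPM (adjusted p = 0.352, interaction -2.65). Flt1 (ENSMUSG00000029648), a VEGF receptor, rose with the Ercc6l2 edit when Trp53 was intact (log2 1.55) and fell when it was edited (log2 -1.32; interaction -2.87). Hs6st2, Htr1b, Pecr and Ttc12 (ENSMUSG00000040219) had interactions of -2.60, -2.57, -2.16 and -1.91. By list, 8 of the 11 tested B and lymphoid progenitor genes had a more positive effect in Trp53-edited cells and none a more negative one, and 4 of them fell in E6l2-KO against wildtype cells. MHC genes fell in both comparisons, 6 of 19 here and 13 of 19 with Trp53 intact.

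**Figure D5:**
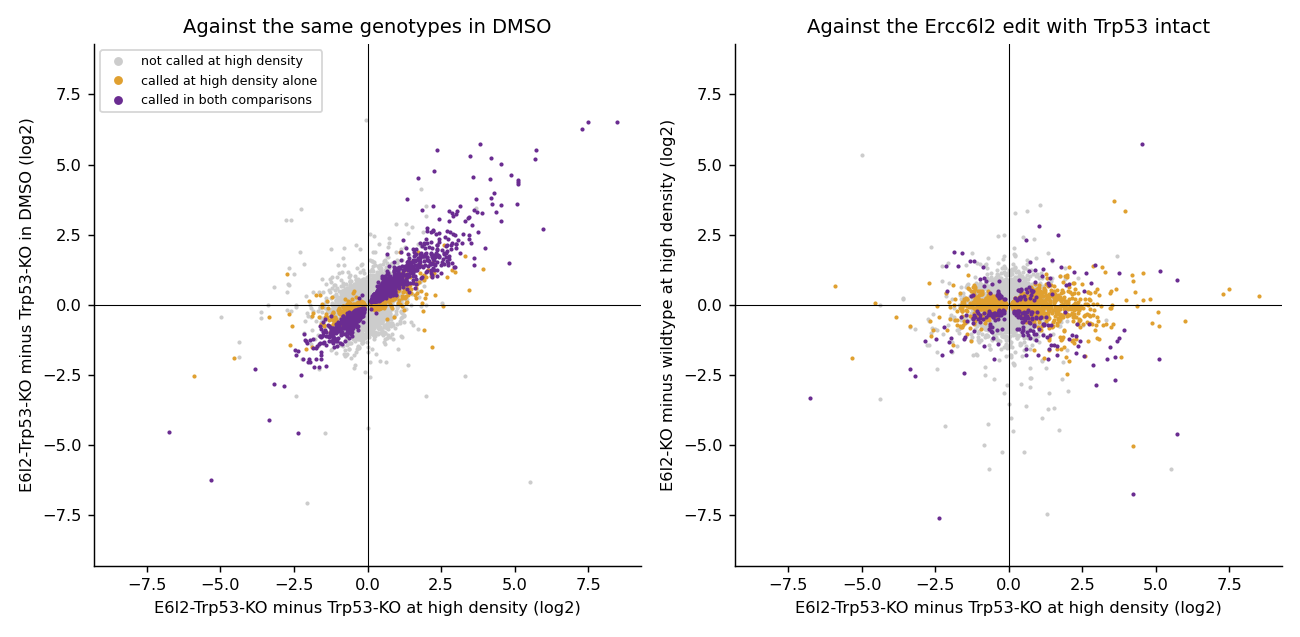
Log2 difference of each of 14059 genes between E6l2-Trp53-KO and Trp53-KO cells at high density (horizontal axis) against the same genotypes in DMSO (left, vertical axis) and against E6l2-KO minus wildtype at high density (right, vertical axis), coloured by where a gene was called. Points follow the diagonal on the left (r 0.671) and do not on the right (r -0.016).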

How the data were processed

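Per the series text, RNA from sorted cells was extracted with a PicoPure kit, sequenced on a NovaSeq and mapped in the SUSHI pipeline. Aligner, counting program, strand setting and build: none is given in the sources used here, so overlapping and antisense genes cannot be told apart. The deposited table holds expected counts per gene (estimated counts, not all whole: 58.1% of the values above 0 lay within 0.01 of a whole number), and they were rounded. Gene positions come from GENCODE M21 (GRCm38), matched by identifier for 25424 of 25528 genes.

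Counts of the 36 untransformed libraries were fitted together in edgeR 4.0.16 (R 4.3.3; TMM scaling, filterByExpr, 1 coefficient per group, quasi-likelihood F test, Benjamini-Hochberg adjustment over 14059 genes). A standard error is the size of a log2 fold change over the square root of its F. Depth was 24.2 to 29.3 M counts in the 6 libraries, and replicates differed by 2.96 to 17 chi-square per degree of freedom, more than counting error. Alternatives were DESeq2 1.42.0, RLE factors, no filter, a block for replicate numbers, a contrast's own groups only, a length and GC offset, and leaving out each library. The block with only the contrast's groups was added after seeing the data. Whether the replicate numbers pair the samples is not settled by these data. At high density, deviations from group means in same-numbered libraries of both genotypes had correlations of 0.322, 0.214 and 0.139. Unlike-numbered libraries had -0.343 to 0.238. Same-numbered libraries had 0.398, 0.226 and -0.158 in DMSO and 0.093, -0.281 and -0.159 in etoposide. Between E6l2-KO and wildtype at high density, same-numbered libraries had 0.362, 0.017 and 0.371. Unlike-numbered libraries of that pair had -0.37 to 0.036. The method was tested on simulated data.

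The members and the 35 gene lists were chosen with earlier results of these data known. Genes named are a panel, the 12 higher and 12 lower genes with the largest change among called genes of at least 5 CPM with no overlap, 6 per direction for each interaction, and up to 4 called members per list. Predicted models, small RNAs, receptor segments and pseudogenes were left out of the rankings. Some listed genes are counted in their lists but not reported here by name.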

Additional observations from a re-analysis of the deposited data

Results flagged for a closer look

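The interaction test in edgeR called a different genotype difference at high density and in DMSO for 47 of 14059 genes (0.334%). The 12 genes named here were picked from those calls, 6 per direction, so their number was set by the rule. The interaction on the log2 scale was 1.03 for Thbs1, 1.07 for Pim2, 1.64 for Ifi209, 1.24 for Wfdc17, 1.22 for Sptssb and 1.19 for Rabgap1l. It was -1.12 for Htr1b, -0.86 for Trem1, -0.53 for Cd200r4, -0.51 for Nabp1, -0.46 for Gimap8 and -0.42 for Plpp5. Plpp5 stood at 10.8 ± 0.258 against 17.4 ± 0.706 CPM when crowded and 15.3 ± 0.624 against 18.4 ± 0.294 CPM in DMSO, and Gimap8 at 28.5 ± 2.35 against 20.2 ± 1.05 CPM and 17.2 ± 1.09 against 8.88 ± 1.03 CPM. Rabgap1l stood at 9.99 ± 2.14 against 2.16 ± 0.285 CPM and 4.71 ± 0.237 against 2.34 ± 0.327 CPM.

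By the same kind of test, the effect of the Ercc6l2 edit at high density differed between Trp53-edited and Trp53-intact cells for 1499 of 14059 genes (10.7%). The 12 genes named here were picked from those calls by the same rule. The difference was 7.04 for Tfpi, 6.55 for Tnni1, 4.83 for Dmrta2, 5.33 for Hbb-bt, 4.79 for Capn2 and 5.24 for Ptprcap. It was -2.65 for Limch1, -2.57 for Htr1b, -2.60 for Hs6st2, -2.16 for Pecr, -2.87 for Flt1 and -1.91 for Ttc12. Each genotype may be 1 edited line, and genotype and line cannot be told apart in either test.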

How the results depend on the processing

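The count of genes called between E6l2-Trp53-KO and Trp53-KO cells at high density ran from 2133 to 3254 over the alternatives that keep all 6 libraries (2793 as reported) and from 2080 to 2634 without 1 library. With the replicate block it was 2857, of which 2759 were the same genes in the same direction, and 2767 with the block and only the contrast's groups. The block changed no other count by over 1.5 times (2178 in DMSO, 3504 in etoposide, 58 for the genotype by density interaction and 1566 for the Ercc6l2 by Trp53 interaction). DESeq2 called 2680. The etoposide count was 1332 with only the groups of the contrast and ran from 2045 to 4026 without 1 library. The density interaction count was 112 with no filter on low counts, 21 with only the groups of the contrast, 81 with DESeq2 and 19 to 180 without 1 library. The cause was not tested. Of 2800 values of 190 single-gene results under alternatives, 2638 were labelled the same, 160 kept direction but lost the call, and 2 passed the threshold anew. A change of sign with a call in either fit was found for 0 values. A gene called in neither fit was labelled the same whatever its sign, so sign changes of uncalled genes were not counted. DESeq2 values without an adjusted p were also labelled the same unless a called gene changed sign. Without E6l2-Trp53-KO high density replicate 1 the high density calls of Cebpa, Slc16a3, Derpc, Cd80, H2ax, Dna2, Uimc1, Ung, Cenpa, Fdps, Trib3, Oasl1, H2-Q7, Ccl3, Mxd3, Rrp1b, Dkc1, Thy1 and Itgax were lost. Without its replicate 2 Slc16a3, Derpc, Cd200r4, Cd80, Nhej1, Fancb, Uimc1, Ercc5, Gtf2h5, Pola1, Oasl1, Cma1 and Pdgfrb were lost. Without its replicate 3 Derpc, Cd200r4, Bcl2l14, Poll, H2ax, Fancb, Nbn, Dna2, Gtf2h5, Pola1, Fdps, Oasl1, Mxd3, Fcgr1, Cma1 and Pdgfrb were lost. Without Trp53-KO replicate 1 Slc16a3, Cd200r4, Cd80, Nhej1, H2ax, Fancb, Uimc1, Fdps, Oasl1, Fos, Fcgr1 and Pdgfrb were lost. Without its replicate 2 Slc16a3, Cd200r4, Cd80, Bcl2l14, H2ax, Dna2, Ercc5, Gtf2h5, Pola1, Fdps, Oasl1, Ccl3, Mxd3, Fcgr1 and Cma1 were lost. Without its replicate 3 Cebpa, Slc16a3, Derpc, Cd200r4, Bcl2l14, H2ax, Fancb, Dna2, Gtf2h5, Ung, Pola1, Oasl1, Ccl3, Mxd3, Dkc1 and Cma1 were lost. Limch1 and Mdm2 passed the test without E6l2-Trp53-KO replicate 1 and 2, respectively. The density interactions of Pim2, Rabgap1l, Thbs1, Gimap8 and Plpp5 were each lost without 1 of several libraries. With only the groups of the contrast the high density calls of Cd80, Cebpa, Dna2, Ercc5, Fancb, Gtf2h5, Nhej1, Pdgfrb, Slc16a3 and Uimc1 and the density interactions of Gimap8, Nabp1, Pim2, Plpp5, Rabgap1l and Trem1 were lost. No filter on low counts lost Dna2, Gtf2h5, Oasl1 and the interaction of Plpp5. The block with only the contrast's groups lost Cd80, Fancb and Gtf2h5 and the interactions of Gimap8 and Plpp5. DESeq2 lost Fancb, Oasl1 and Slc16a3. The length and GC offset lost Cd200r4, Fancb, H2ax, Uimc1 and the interaction of Gimap8. List counts of 0 to 2 members moved by at most 1 member without 1 high density library.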

Other observations

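Some called genes lie beside each other in the genome (GENCODE M21, GRCm38). Those described here were chosen after their values were seen. Of all tested genes 19.9% were called, and how often called genes lie beside each other was not counted. On chromosome X, within 100 kb of Pim2 (7878262 to 7883432), 10 genes were tested, Pim2 included. Otud5 stood at 46.8 ± 8.57 against 77.2 ± 1.26 CPM (log2 -0.72, adjusted p = 8.83e-11), and Pim2 and Gata1 (7959260 to 7978071) rose by log2 4.36 and 3.02. Slc35a2, Pqbp1, Timm17b, the predicted gene Gm10490 and Hdac6 lie between Pim2 and Gata1. None of them passed the test (log2 0.01, 0.13, 0.12, 0.50 and -0.13). On chromosome 1, Pecr (72259167 to 72284314) and Xrcc5 (72307421 to 72394952) are neighbours on opposite strands and were the 2 genes tested within 100 kb of Xrcc5. They fell together, with log2 -2.04 and -1.84 at high density, -1.37 and -1.53 in DMSO and -1.05 and -0.94 in etoposide. With Trp53 intact neither passed the test (log2 0.12 and 0.22, adjusted p = 0.917 and 0.701, edgeR's quasi-likelihood test).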
